A study of Mus musculus with 8 samples.

Results

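The genes of the microtubule motors, the kinesins and the cytoplasmic dyneins with dynactin, were followed in sorted cells of mouse colon. Members were chosen by symbol: every Kif and Kifc gene, the kinesin light chain genes Klc1 to Klc4, all genes beginning Dync1 or Dync2 and the dynactin genes Dctn1 to Dctn6, without pseudogenes and antisense genes. This gave 62 of the 55414 genes in the table. By textbook role, 30 were put in a class for long-range transport of cargo, 14 in a class of mitotic motors, 11 in a class for cilia and centrioles, and 7 in a remainder. The 8 libraries came from 4 WT and 4 Emb knockdown mice at 4 weeks of age. By the labels they hold enteric neurons, sorted with antibodies to CD24 and CD56 into tubes of about 250 cells. Emb encodes embigin, a membrane protein of the immunoglobulin superfamily. The labels name neither the construct nor the allele that lowered Emb, nor the cell type in which it acted. They do not say whether a tube held cells of a single mouse, so the p-values below measure the spread between these tubes, part of which may be technical.

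Motors of both families walk along microtubules by splitting ATP. In an axon most kinesins carry vesicles, mitochondria and cytoskeletal parts from the cell body towards the terminal, and cytoplasmic dynein 1, joined to the dynactin complex, carries endosomes and trophic signals back. Another set of kinesins builds the mitotic spindle and divides the cell, and is mostly made by cycling cells. In the gut, KIF26A is known as a regulator of GDNF and RET signalling in enteric neurons.

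Total counts lay at 698930 to 954191 in WT and 2024372 to 2712754 in Emb knockdown, and ribosomal RNA (Rn18s-rs5) took 3.55% to 13% and 29.2% to 42.5% of them. Emb itself had 4 to 22 counts in WT libraries and 3 to 25 in Emb knockdown libraries. Scaled to library size it stood at 5.15, 6.9, 16.7 and 22.5 CPM (library-scaled counts, with TMM factors) in WT and 3.33, 13.3, 1.62 and 3.13 CPM in Emb knockdown. Emb knockdown replicates 1, 3 and 4 lay below every WT library, and replicate 2 lay within the WT range (difference of -1.24 ± 0.82 on the log2 scale, SE; edgeR adjusted p = 0.529). At these counts the difference did not pass the test. As a yardstick for background, the counts of 1506 olfactory, vomeronasal and trace amine receptor genes were taken per kilobase of exon. These genes took 0.833% to 1.16% of total counts in WT and 0.262% to 0.622% in Emb knockdown. Multiples of that level can therefore differ between genotypes at an equal CPM. Of the neuron markers, Elavl3 reached 14.9 to 26.1 times that level in WT libraries, against 8.85 to 16.9 times with Emb knocked down, but Snap25 reached only 1.46 and 0.969 times, and Tubb3 2.13 and 2.58 times. Gfap, a glial gene, lay at 8.65 to 17.4 and 19.9 to 73.3 times the background. By CPM Gfap averaged 82.4 ± 30 in WT and 147 ± 77.4 in Emb knockdown (SD), a log2 fold change of 0.83 ± 0.65 (SE). C1qa, a macrophage gene, lay at 321 to 1316 and 2820 to 5975 times, whereas Itgam, an integrin of the same cells, lay at 183 to 781 and 32.6 to 102 times. The summed level of 14 neuron markers was 270 to 465 CPM in WT and 230 to 536 in Emb knockdown. It was 2923 to 9190 and 4768 to 6996 CPM for 12 macrophage and dendritic markers. The groups did not overlap for the sum of 7 fibroblast markers, at 79.8 to 224 and 266 to 500 CPM. Of the 6 tested fibroblast markers, 4 had a log2 fold change above 0, and Pdgfra and Pdpn were at -0.66 ± 0.71 and -1.02 ± 0.70. Taken singly, 1 of these 6 did not overlap, against 8.28% of all tested genes. Of 10 tested macrophage and dendritic markers, 6 were higher and 1 (Itgam) lower at an unadjusted p under 0.05, against 8.64% and 4.64% of all genes tested. Vip, a neuropeptide, had 0 counts in 2 WT libraries and 1 Emb knockdown library. Sums of epithelial, endothelial, muscle and lymphocyte markers overlapped. The part these transcripts have in the motor gene values was not tested.

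Most motor genes were counted little above that background. Of the 62 members, 52 had at least 1 count in every library, but in WT libraries only 16.1% to 27.4% of members lay above 3 times the receptor-gene level per kilobase. In Emb knockdown libraries the share was 30.6% to 45.2%. The same shares over all protein-coding genes were 15.7% to 22.1% and 22.9% to 32.2%, so the higher share in Emb knockdown was not limited to motors. A single member, Kif3a, lay above 3 times the background in all 8 libraries. By the median of a group, 8 members did so in WT and 23 in Emb knockdown.

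**Figure D1:**
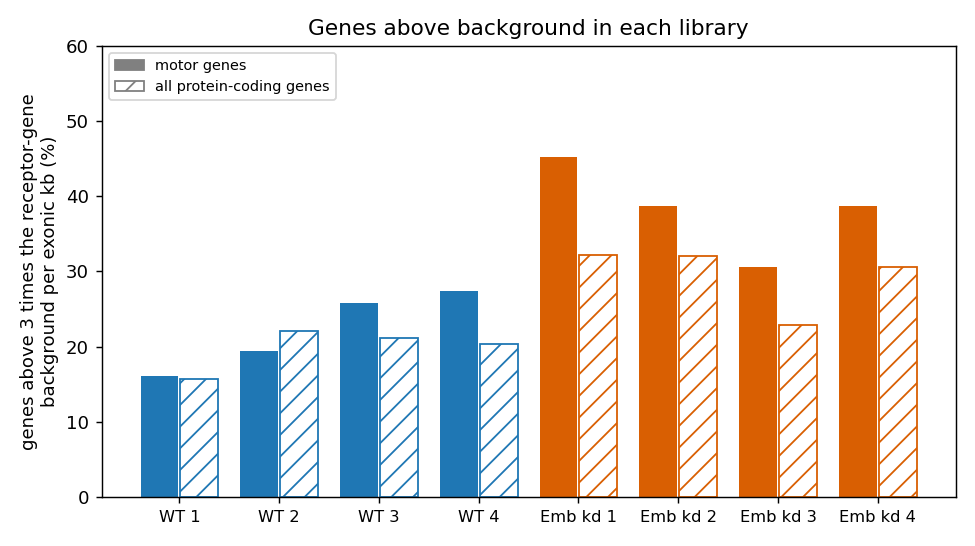
Percentage of genes above 3 times the receptor-gene background (counts per exonic kilobase) in each library, for the 62 motor genes (filled bars) and all protein-coding genes (hatched bars). Motor genes reach 16.1% to 27.4% in WT and 30.6% to 45.2% in Emb knockdown, and the protein-coding genes are also higher in Emb knockdown.

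No motor gene passed the adjusted threshold between genotypes, and the gene that stood farthest out was the transport kinesin Kif13a, which was lower in Emb knockdown. Of the 62 members, 52 had enough counts to be tested. By edgeR 0 of them passed an adjusted p of 0.05, as did 0% of the 11353 genes tested. With limma voom the count was also 0 members (0% of all genes), with the DESeq2 Wald test it was 1 (6.6% of all genes), and by edgeR without a filter on low counts it was 1 (1.88% of the 48530 genes then tested). Both of the latter calls were Kif13a. An unadjusted edgeR p under 0.05 was found for 6 members against 13.3% of all genes tested: 4 higher in Emb knockdown (8.64% of all genes) and 2 lower (4.64% of all genes). As a share of the 52 tested members that is 11.5%, close to the background. Leaving out either WT replicate 2 or Emb knockdown replicate 1 lowered that count of 6 to 3. The genotypes did not overlap in 2 members, Kif13a and Kif20b, where 8.28% of all tested genes did not overlap (4.03% higher, 4.25% lower).

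**Figure D2:**
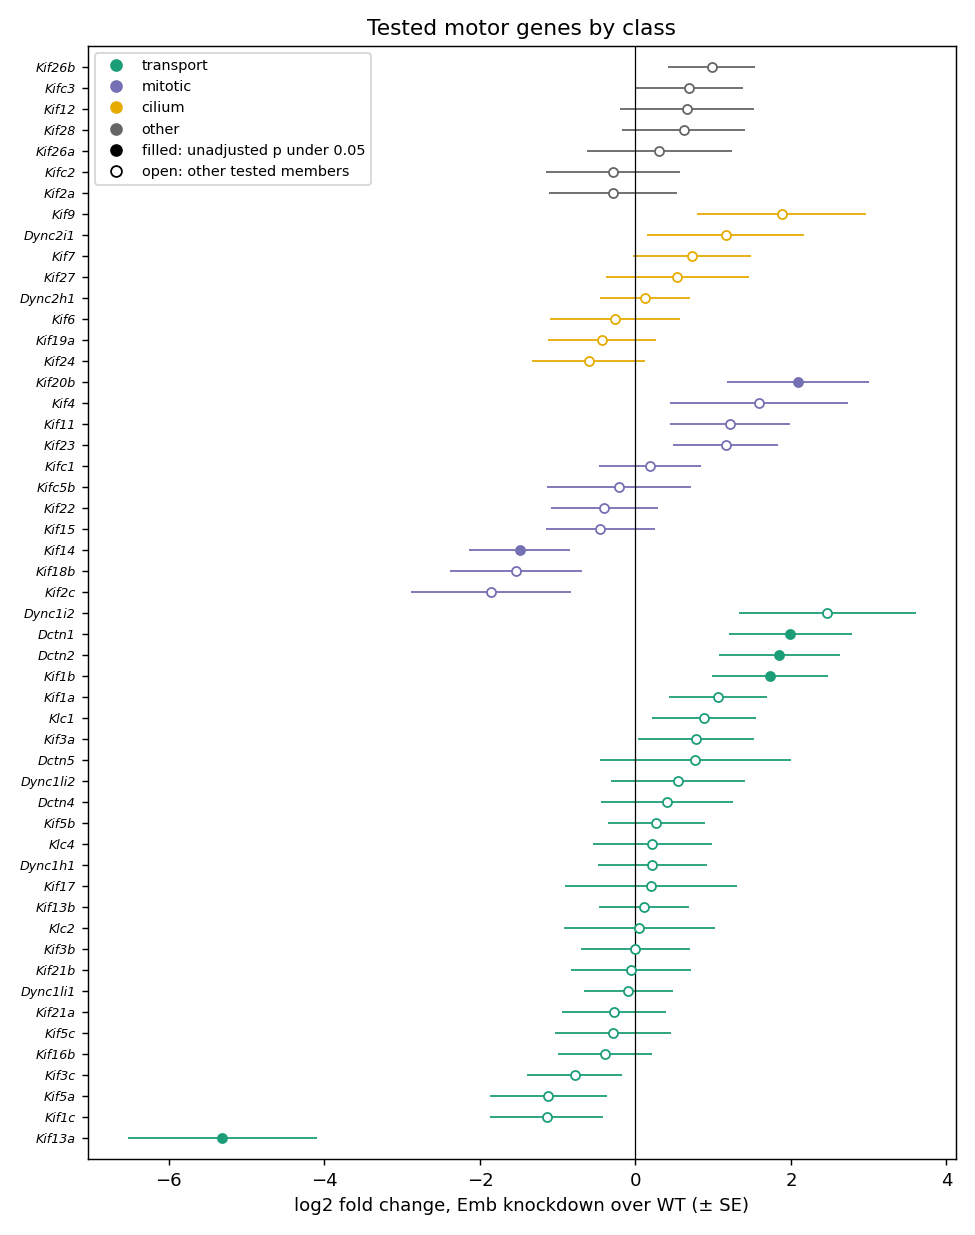
Log2 fold change of the 52 tested motor genes, Emb knockdown over WT, with its standard error, ordered within 4 classes; filled points mark an unadjusted edgeR p under 0.05. Kif13a lies at -5.31, and the other members lie between -1.86 and 2.47.

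The share of tested members with a log2 fold change above 0 was 61.5%, against 51.6% of all tested genes. A member with few WT counts could pass the filter through its Emb knockdown counts, so this share is a description. Without the filter 42 of all 62 members were above 0, where 56.1% of all genes were. The direction depends on how libraries are scaled. Over all tested genes the median log2 fold change was 0.04, but -0.67 with library totals alone, where 16 of 52 members were above 0. Scaled to the receptor genes it was 0.64, with 44 of 52 members above 0. Members with an unadjusted p under 0.05 were split 4 higher and 2 lower with TMM factors, 0 and 6 with library totals alone, and 10 and 1 scaled to receptor genes. Over all genes the higher share of such calls was 65.1%, 18% and 93.6% in the same order. Values below use TMM factors unless stated.

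Kinesin-3 motors carry synaptic vesicle precursors, mitochondria and endosomes, and this family held members on either side of 0. Kif13a, which moves recycling endosomes and their cargo towards the cell edge, lies on chromosome 13 at 46749087 to 46929867, minus strand (ENSMUSG00000021375, GRCm38). WT replicates 1 to 4 held 253, 164, 38.8 and 1800 CPM of it, and the Emb knockdown replicates, in the same order, 11.3, 18.6, 9.73 and 16.9 CPM. All WT libraries lay above all Emb knockdown libraries, and WT replicate 4 held most of the WT signal. The log2 fold change was -5.31 ± 1.22 (SE; edgeR adjusted p = 0.275, unadjusted 0.00105), and -3.42 without WT replicate 4. The DESeq2 Wald test gave an adjusted p of 4.37e-06, and over all settings tried it ranged from that value to 0.53. In Emb knockdown Kif13a lay at 0.976 to 2.39 times the receptor-gene background, against 3.13 to 148 times in WT. Its close relative Kif13b, which carries phosphoinositide-linked vesicles, showed no such gap: its log2 fold change was 0.11 ± 0.58. The difference between the relatives was not tested.

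Kif1b, which moves mitochondria and synaptic vesicle precursors, pointed the other way. It lies on chromosome 4 at 149176319 to 149307693, minus strand. Kif1b had 77.2, 43.7, 64.7 and 39.4 CPM in WT and 244, 279, 186 and 37 CPM in Emb knockdown. The first 3 Emb knockdown libraries lay above every WT library and replicate 4 lay below them all. The log2 fold change of Kif1b was 1.73 ± 0.75 (edgeR adjusted p = 0.352, unadjusted 0.0396). It ranged from 1.46 to 2.07 with single libraries left out. Kif1a, the neuronal motor of synaptic vesicle precursors and dense core vesicles, had 6.43, 17.2, 16.7 and 7.03 CPM in WT and 26.6, 11.1, 25.4 and 37 in Emb knockdown. These groups overlapped through Emb knockdown replicate 2 (log2 fold change 1.06 ± 0.63, edgeR adjusted p = 0.487). In WT Kif1a was at 0.406 to 1.26 times the background, that is, not distinguishable from it. Kif1c and Kif16b, motors of dense core vesicles and early endosomes, had log2 fold changes of -1.14 ± 0.73 and -0.39 ± 0.60.

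**Figure D3:**
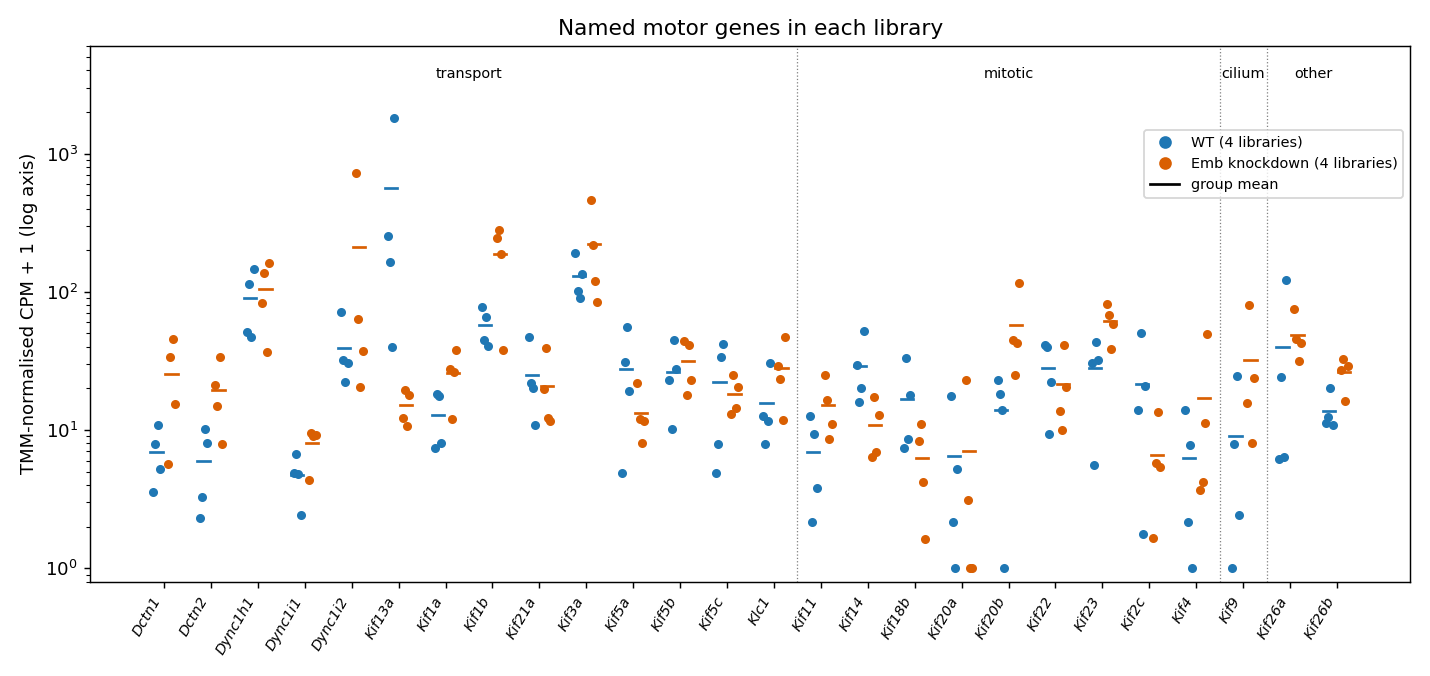
TMM-normalised CPM plus 1 (log axis) of 26 named motor genes in each of 4 WT and 4 Emb knockdown libraries, with group means, grouped by class. The groups separate for Kif13a (WT higher) and Kif20b (Emb knockdown higher) and overlap for the others, and lone high libraries stand out for Kif13a, Dync1i2 and Kif26a.

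Kinesin-1, the main motor of fast anterograde transport, was low in both genotypes. Its heavy chain Kif5a, made mainly by neurons, had 3.86, 29.9, 54.8 and 18.3 CPM in WT and 20.7, 11.1, 7.02 and 10.7 in Emb knockdown. Kif5b, the heavy chain found in most cells, had 21.9, 9.2, 43.4 and 26.7 CPM in WT and 43.3, 17, 40.5 and 21.9 in Emb knockdown. Kif5c, also mainly neuronal, had 3.86, 6.9, 32.7 and 40.8 CPM in WT and 12, 23.9, 13.5 and 19.4 in Emb knockdown. The groups overlapped for all 3 heavy chains, and WT replicate 1 was low for Kif5a and Kif5c. Their log2 fold changes were -1.12 ± 0.75, 0.27 ± 0.62 and -0.29 ± 0.75 (edgeR adjusted p = 0.536, 0.893 and 0.906). The light chains, which bind cargo, were tested for Klc1, Klc2 and Klc4. Klc1 had 11.6, 6.9, 10.7 and 29.5 CPM in WT and 28, 22.3, 10.8 and 46.4 in Emb knockdown, a log2 difference of 0.88 ± 0.67 (edgeR adjusted p = 0.592). The values of Klc2 and Klc4 were 0.05 ± 0.97 and 0.22 ± 0.77, and Klc3 had too few counts to be tested.

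Kinesin-2 pairs KIF3A with KIF3B or KIF3C to move vesicles along axons and particles along cilia, and its Kif3a gene was the best-detected motor gene. Kif3a (chromosome 11, 53567379 to 53601967, plus strand) had 189, 101, 89.8 and 134 CPM in WT and 460, 217, 119 and 83.3 in Emb knockdown. Against the background it stood 16.4 to 31 times higher in WT libraries and 22 to 152 times higher in Emb knockdown libraries, and the normalised levels of the groups overlapped. The log2 fold change was 0.78 ± 0.74 (edgeR adjusted p = 0.68). Per kilobase of exon Kif3a averaged 35.8 CPM in WT and 61.4 in Emb knockdown, while its partners Kif3b and Kif3c averaged 1.99 and 2.48 in WT and 2.01 and 1.43 in Emb knockdown. The pair partners were thus far below Kif3a on that scale in both genotypes. Their log2 fold changes were 0.00 ± 0.70 and -0.78 ± 0.61. Kif17, a motor of dendritic vesicles and cilia, was at 0.20 ± 1.11, with 38.8 CPM in WT replicate 3 and 0 to 5.62 in the remaining WT libraries. Exons of Kif3c overlap antisense genes in the GENCODE annotation. Exons of 22 members overlap other genes, among them Kif5b, Dync1h1, Kif22, Kif7 and Kif26b, and their reads cannot be told apart without a stated strand setting.

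The kinesin-4 motors Kif21a and Kif21b, which restrain microtubule growth in axons and dendrites, did not separate the genotypes. Kif21a had 46.3, 20.7, 19 and 9.84 CPM in WT and 18.7, 38.2, 11.3 and 10.7 in Emb knockdown, ranges that overlap widely. The log2 fold changes were -0.28 ± 0.67 and -0.06 ± 0.77.

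Cytoplasmic dynein 1 carries cargo back to the cell body. Dync1h1, its motor-bearing heavy chain, had 50.2, 113, 46.4 and 145 CPM in WT and 81.9, 135, 35.7 and 161 in Emb knockdown. The groups overlapped over most of their range (log2 fold change 0.22 ± 0.70, edgeR adjusted p = 0.926). Dync1i2, the widely used intermediate chain that links dynein to dynactin (chromosome 2, 71211706 to 71263303, plus strand), had 70.8, 31, 21.3 and 29.5 CPM in WT and 726, 62.6, 19.5 and 36.3 in Emb knockdown. Emb knockdown replicate 1 alone held 86% of the summed Emb knockdown level, and the other 3 libraries lay between 19.5 and 62.6, close to or inside the WT range. The log2 fold change was 2.47 ± 1.14 (edgeR adjusted p = 0.378) and 0.05 without that library. The neuronal intermediate chain Dync1i1 had 3 to 5 counts in 3 WT libraries and 1 in the other, too few to be tested. The light intermediate chains Dync1li1 and Dync1li2, which hold cargo adaptors, had log2 fold changes of -0.09 ± 0.57 and 0.55 ± 0.86.

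Of dynactin, the complex that makes dynein processive, the 4 tested Dctn genes had higher mean levels in Emb knockdown. Dctn4 and Dctn5 turned to -0.54 and -0.16 on the log2 scale with library totals alone. Dynactin subunits outside the naming rule lay on both sides of 0 and are given with the partner lists below. Dctn1, the large arm that grips dynein and the microtubule (chromosome 6, 83165920 to 83200117, plus strand), had 2.57, 6.9, 9.89 and 4.22 CPM in WT and 4.66, 32.9, 44.9 and 14.4 in Emb knockdown. Dctn2, dynamitin of the shoulder (chromosome 10, 127266368 to 127281950, plus strand), had 1.29, 2.3, 9.13 and 7.03 CPM in WT and 20, 13.8, 33 and 6.89 in Emb knockdown. In each gene 3 of 4 Emb knockdown libraries lay above every WT library, and the low library was Emb knockdown replicate 1 for Dctn1 and replicate 4 for Dctn2. Log2 fold changes were 1.99 ± 0.79 and 1.85 ± 0.78 (edgeR adjusted p = 0.326 and 0.341, unadjusted 0.0282 and 0.0358). The WT values rest on 2 to 13 counts of Dctn1 and 1 to 12 of Dctn2, at 0.233 to 0.993 and 0.158 to 1.24 times the background. Dctn4 and Dctn5 of the pointed end had log2 fold changes of 0.41 ± 0.85 and 0.77 ± 1.23. Leaving out Emb knockdown replicate 1 gave -1.19 for Dctn5, and leaving out WT replicate 2 gave 2.34. Dctn3 and Dctn6, of the shoulder and the pointed end, were not tested, and Dctn3 had 41.4 CPM in Emb knockdown replicate 4 against 1.08 to 11.3 in the other Emb knockdown libraries. Summed over the 6 Dctn genes, the level was 37.3 to 113 CPM in WT and 89.1 to 171 in Emb knockdown. In libraries of many cells, a change in the share of a cell type and a change in RNA per cell cannot be told apart.

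Mitotic motors were detected at low levels in both genotypes, and their fold changes lay on both sides of 0. Promoters of many cell-cycle genes carry a CCAAT box with a cell-cycle homology region downstream of it, and these letters were searched in the 250 bases before each RefSeq start. Promoters were found for 13 mitotic and 22 transport members, 45 of the 62 members in all. TTTGAA, read on both strands, occurred in 5 of 13 mitotic promoters (38.5%) and 2 of 26 transport promoters (7.69%), against 16% of all 32851 promoters in the table. CCAAT, also on both strands, occurred in 69.2%, 34.6% and 33.8%, and the motifs did not overlap in the promoters printed. Both motifs, in any order, occurred in 3 of 13 mitotic promoters (23.1%), 0 of 26 transport promoters and 5.55% of all promoters. Promoters of 3 members are printed as examples and do not stand for their classes. They run 5′ to 3′ on the strand of the gene, up to the first annotated base, with motif letters in capitals (ATTGG is CCAAT on the opposite strand and TTCAAA is TTTGAA on the opposite strand). They come from RefSeq on GRCm38.p6: Kif11 at chr19:37376262-37376381 (plus strand), Kif23 at chr9:61946800-61946919 (minus strand) and Kif13a at chr13:46929868-46929968 (minus strand).
Kif11: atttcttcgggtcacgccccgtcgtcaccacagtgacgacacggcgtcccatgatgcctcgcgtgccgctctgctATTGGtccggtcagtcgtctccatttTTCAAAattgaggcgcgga
Kif23: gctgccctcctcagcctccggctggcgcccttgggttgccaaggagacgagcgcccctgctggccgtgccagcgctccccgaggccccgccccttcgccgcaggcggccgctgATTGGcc
Kif13a: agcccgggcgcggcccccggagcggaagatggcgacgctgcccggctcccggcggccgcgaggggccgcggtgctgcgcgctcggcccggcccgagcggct
Kif11 shows both motifs near its start, Kif23 the CCAAT box alone, and Kif13a neither in its 250 bases. The printed Kif13a stretch ends 149 bases before its RefSeq start, and those 149 bases were searched but are not printed. A match of letters is a description and not evidence that a factor binds.

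Kif20b, a motor of the late spindle and of cytokinesis, had 21.9, 17.2, 12.9 and 0 CPM in WT and 44, 23.9, 41.6 and 115 in Emb knockdown. The groups did not overlap, although Emb knockdown replicate 2 came close to WT replicate 1. Kif20b (chromosome 19, 34922361 to 34975745, plus strand) had a log2 fold change of 2.09 ± 0.91 (edgeR adjusted p = 0.356, unadjusted 0.0408), and 1.47 without Emb knockdown replicate 4. Kif23, the kinesin of centralspindlin at the midbody (chromosome 9, 61915905 to 61946774, minus strand), had 29.6, 4.6, 42.6 and 30.9 CPM in WT and 79.9, 67.3, 37.8 and 57 in Emb knockdown. It had the highest summed counts of the class, and Emb knockdown replicate 3 fell within the WT range (log2 fold change 1.16 ± 0.68, edgeR adjusted p = 0.48). Kif11, which pushes spindle poles apart, had 11.6, 1.15, 8.37 and 2.81 CPM in WT and 24, 15.4, 7.57 and 10 in Emb knockdown, a log2 difference of 1.22 ± 0.77 (edgeR adjusted p = 0.51). Its WT level was 0.105 to 0.913 times the background, so it was not detectable above it.

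Kif14, which works with citron kinase in cytokinesis, lay on the other side. Kif14 (chromosome 1, 136466343 to 136531511, plus strand) had 28.3, 14.9, 19 and 50.6 CPM in WT and 5.33, 16.4, 5.94 and 11.9 in Emb knockdown. Emb knockdown replicate 2 lay above WT replicate 2, so the groups overlapped (log2 fold change -1.49 ± 0.65, edgeR adjusted p = 0.359, unadjusted 0.0422). The microtubule depolymerase Kif2c had 12.9, 49.4, 0.761 and 19.7 CPM in WT and 0.666, 4.77, 12.4 and 4.39 in Emb knockdown, an overlap through WT replicate 3 (log2 fold change -1.86 ± 1.03). Kif18b, which controls astral microtubules, was at -1.54 ± 0.85. The chromokinesins Kif22 and Kif4, which push chromosome arms, were at -0.40 ± 0.69 and 1.59 ± 1.15. Kif4 held 48.2 CPM in Emb knockdown replicate 4 and was at 0.03 without it. Its exons overlap Pdzd11 on the opposite strand, and it has a pseudogene that may share its reads. Kif15, which shares the work of Kif11 at the spindle, was at -0.45 ± 0.70 and had 73.6 CPM in WT replicate 2, with the remaining WT libraries at 9.84 to 39.6. The minus-end motor Kifc1 and its near copy Kifc5b, between which reads may have been split, were at 0.19 ± 0.66 and -0.21 ± 0.93. Kif18a and Kif2b had 1 to 29 and 1 to 14 counts a library and were not tested. Kif20a, a kinesin of the central spindle, had 0 to 13 counts in WT and 0 to 33 in Emb knockdown and was not tested; its exons overlap Cdc23 on the opposite strand.

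Set side by side, the medians of the transport and mitotic classes lay on either side of 0 with TMM factors, both below 0 with library totals alone and both above 0 when scaled to receptor genes, and the ranges they took when single libraries were left out overlapped. The median log2 fold change was 0.21 over 26 tested transport members and -0.21 over 11 tested mitotic members, against 0.04 over all tested genes. Leaving out single libraries moved the transport median between 0.00 (without WT replicate 2) and 0.42 (without WT replicate 3), and the mitotic median between -0.56 (Emb knockdown replicate 3 left out) and 0.15 (without WT replicate 3). Members with an unadjusted p under 0.05 numbered 3 higher and 1 lower in transport, and 1 higher and 1 lower among mitotic motors. These were 15.4% and 18.2% of the tested members of each class, against 13.3% of all genes tested. Summed over all members, tested or not, transport motors were at 772 to 2507 CPM in WT and 811 to 1957 in Emb knockdown, and mitotic motors at 188 to 268 and 205 to 324 CPM. The ratio of the sums was 4.76, 2.88, 4.65 and 12.6 in the WT libraries, by replicate, and 8.39, 5.73, 3.33 and 2.66 in those of the Emb knockdown. The transport sum exceeded the mitotic sum in every library, and the ratios of the genotypes overlapped (6.21 ± 4.32 and 5.03 ± 2.60, SD, n = 4 each). The high ratio of WT replicate 4 went with Kif13a: without that gene the WT ratios were 3.52, 2.27, 4.44 and 3.54 and the Emb knockdown ratios 8.35, 5.64, 3.29 and 2.61. The order of the means turned, to 3.44 ± 0.892 in WT and 4.97 ± 2.60 in Emb knockdown, and the groups still overlapped. The transport class has more genes, so the ratio is no measure of a gene's level.

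**Figure D4:**
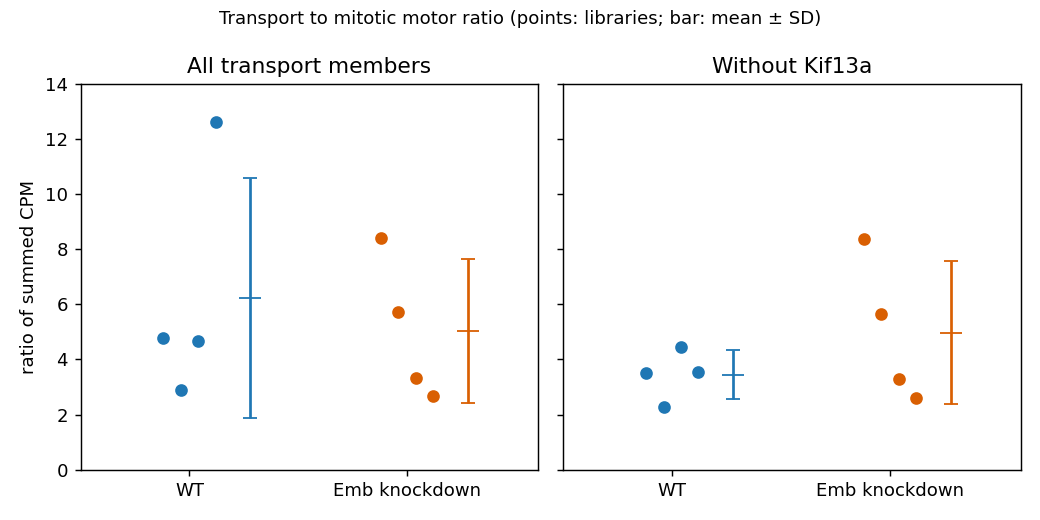
Ratio of the summed CPM of 30 transport members to that of 14 mitotic members in each library (points), with mean ± SD beside them, for all transport members (left) and without Kif13a (right). WT replicate 4 stands at 12.6 on the left and 3.54 on the right, and the genotypes overlap in both panels.

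Motors of cilia and centrioles gave no unadjusted p under 0.05 among 8 tested of 11, where 13.3% of all genes tested had one. Kif9, a kinesin of motile cilia and sperm tails, had 0, 6.9, 23.6 and 1.41 CPM in WT and 14.7, 79.5, 7.02 and 22.6 in Emb knockdown. The groups overlapped through WT replicate 3 (log2 fold change 1.88 ± 1.09, edgeR adjusted p = 0.476). Dync2h1, the heavy chain of the dynein that returns particles from the ciliary tip, was at 0.12 ± 0.58, and Kif7, the kinesin of Hedgehog signalling at the ciliary tip, at 0.73 ± 0.76. The other 5 tested members of the class lay between -0.60 (Kif24, a centriole kinesin) and 1.16 (Dync2i1, an intermediate chain of dynein 2), and Kif19b, Dync2i2 and Dync2li1 had too few counts to be tested.

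Kif26a, the kinesin linked to enteric neurons, ranged more widely between WT libraries than between genotypes. It lies on chromosome 12 at 112146208 to 112181747, plus strand, and had 5.15, 23, 5.33 and 121 CPM in WT and 73.9, 44.5, 30.3 and 41.4 in Emb knockdown. The Emb knockdown libraries lay above 3 WT libraries and below WT replicate 4. The log2 fold change of Kif26a was 0.31 ± 0.93 (edgeR adjusted p = 0.922) and 2.09 without WT replicate 4. Its relative Kif26b, which also lacks motor activity, had 10.3, 11.5, 19 and 9.84 CPM in WT and 26, 31.8, 15.1 and 28.2 in Emb knockdown, with Emb knockdown replicate 3 inside the WT range (0.98 ± 0.56, edgeR adjusted p = 0.47). Kif2a, a depolymerase that trims axon branches, was at -0.29 ± 0.82, and its exons overlap Dimt1 on the opposite strand. The other members without a class, Kif12, Kif28, Kifc2 and Kifc3, lay at 0.66 ± 0.86, 0.62 ± 0.79, -0.29 ± 0.86 and 0.69 ± 0.70.

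The partners of the motors are given from 4 lists. In the order used below, 14.3%, 6.06%, 5.88% and 29.4% of their tested members had an unadjusted p under 0.05, against 13.3% of all genes tested. Of 15 dynein light chains and dynactin subunits outside the naming rule, 7 were tested, and 1 had an unadjusted p under 0.05: the light chain Dynlt3 (means of 3.83 ± 3.91 CPM for WT against 20.1 ± 14.6 for Emb knockdown, SD over 4 libraries each, and a log2 difference of 2.35 ± 0.93, edgeR adjusted p = 0.323). Actr10 of the dynactin filament and the light chain Dynll1 were at -1.32 ± 0.62 and 1.24 ± 0.67. Of the other tested dynactin genes, Actr1a and Capzb were at -0.78 ± 0.87 and -1.12 ± 0.74, and Actr1b and Capza2 at 0.41 ± 0.52 and 0.97 ± 0.76. Of 38 cargo adaptors and regulators, 33 were tested, and 1 was higher and 1 lower at an unadjusted p under 0.05. These were Pafah1b1, the LIS1 protein that activates dynein (69.1 ± 56.3 and 327 ± 244 CPM; 2.24 ± 0.85, edgeR adjusted p = 0.32), and Hook2, a dynein adaptor (-1.67 ± 0.68). Spag9, a scaffold of kinesin-1 and dynein, was at -1.21 ± 0.56. The medians of these lists were 0.41 and 0.06. Summed over the 38 adaptors and regulators, WT libraries held 1813 to 4066 CPM and Emb knockdown libraries 1527 to 1775, without overlap. The gap was narrow, and WT replicate 4 alone stood at 4066, with the next WT library at 2274. Dennd4a and Rhot1 had the highest WT means of the tested members, at 1267 ± 455 and 431 ± 809 CPM. In Emb knockdown their means were 514 ± 317 and 47.7 ± 41 CPM. Dennd4a and Rhot1 made up most of the mean WT sum (2545 ± 1031 CPM) and a minor part of that in Emb knockdown (1662 ± 121 CPM). The lower sum thus rests on them and not on the list as a whole. Of the 33 tested members, 17 had a log2 fold change above 0 and 16 below. The groups did not overlap in 2 of the 33, both lower in Emb knockdown, where 8.28% of all tested genes did not overlap (4.25% lower).

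Of 25 mitosis genes outside the motors, 17 were tested, and 1 was higher at an unadjusted p under 0.05: Cdk1, the kinase that starts mitosis (9.38 ± 8.27 and 64.6 ± 76.7 CPM; 2.79 ± 1.03, edgeR adjusted p = 0.314). The spindle midzone protein Prc1 was at -1.41 ± 0.65, and the kinase Plk1 at 2.42 ± 1.33. The list had 9 members above 0 and 8 below, with a median of 0.10. Of 28 tubulins and microtubule-associated proteins, the track and its binding proteins, 17 were tested, and 3 were higher and 2 lower at an unadjusted p under 0.05. Tuba1a, a tubulin of growing neurons, had 26.0 ± 35.0 and 426 ± 331 CPM (4.04 ± 1.22, edgeR adjusted p = 0.295), and Map1b and the plus-end protein Mapre1 were at 2.52 ± 0.78 and 1.94 ± 0.76. The median of that list was 0.26. No member of the 4 lists passed an adjusted p of 0.05 by edgeR with the filter on low counts, or by limma voom. DESeq2 called 0, 1, 1 and 4 of them in the order given (6.6% of all genes), and edgeR without the filter 0, 0, 1 and 3 (1.88% of all genes then tested).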

How the data were processed

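The authors deposited raw counts of reads for each gene as whole numbers, in 8 libraries (4 WT, 4 Emb knockdown). Per the submitters' processing notes cutadapt and build mm10 were used; for the aligner, counter, strand setting and annotation the sources used here give no name. Per the labels' protocols a Smart-seq kit was used for the libraries, and no molecular identifiers are named, so counts may include amplified copies. EdgeR 4.0.16 (R 4.3.3) was run on the counts of all genes: filterByExpr (minimum count 10, minimum total 15), TMM factors, robust quasi-likelihood fits with group as the only term, Benjamini-Hochberg adjustment over 11353 genes and a threshold of 0.05. Standard errors came from the fold change and the F statistic. Alternatives used DESeq2 1.42.0, limma 3.58.1 voom, other scalings, no filter (total above 0), the replicate number as a block and each library left out; thinning and the ratio without Kif13a were added after seeing the data. Exon lengths and positions came from GENCODE M21 (GRCm38), which held 52133 of 55414 identifiers; exons of 22 members overlap other genes. The members, classes, lists and tests were chosen with earlier results of these data known. Named genes were the 14 tested members with the smallest unadjusted p, those without overlap and a fixed list (1 symbol of it has no row), and up to 3 genes per partner list by smallest p. Further partners were added afterwards. These were other dynactin genes, the adaptors with the highest WT means, and the lower genes of the tubulin list with an unadjusted p under 0.05. The summed level of the glial markers is not reported here.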

Additional observations from a re-analysis of the deposited data

Results flagged for a closer look

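Among 52 groups of 4 libraries (26 named motor genes in each genotype), 1 held a library set apart from the other 3 by Dixon's criterion on the log2(CPM + 2) scale, its gap taking 0.946 of the range; chance gives about 1 in 20. Dync1i1, the neuronal dynein intermediate chain, was at 3.33 CPM in Emb knockdown replicate 1 and at 8.11 to 8.48 CPM in the other 3 Emb knockdown libraries. That is a difference between 5 counts and 13 to 16 counts.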

How the results depend on the processing

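Counts and medians moved with the scaling and the tool. With library totals alone the transport and mitotic medians were -0.56 and -0.86 (all genes -0.67). Scaled to receptor genes they were 0.76 and 0.22 (all genes 0.64), with 11 members at an unadjusted p under 0.05. That count was 3 with limma voom and 2 with the replicate block. Without a filter the medians over the same members were 0.43 (transport) and 0.00 (mitotic), against 0.28 over the 11353 genes that pass the filter. Past the adjusted p stood 1 member (Kif13a) by DESeq2 (-5.32) and by edgeR without a filter (-5.04), and 0 in all other settings. With single libraries left out, 3 to 7 members had an unadjusted p under 0.05, 0 passed the adjusted p, and the medians ran from 0.00 to 0.42 (transport) and -0.56 to 0.15 (mitotic). The cause of these moves was not tested. Of 24 named members tested, 17 kept their sign in every setting. Signs turned for Kif26a (-0.36), Dync1h1 (-0.47), Kif5b (-0.51) and Kif3a (-0.04) with library totals alone, and for Kif22 (0.13), Kif5c (0.30) and Kif21a (0.42) when scaled to receptor genes. Kif5c was at 0.16 with limma voom and 0.15 with the replicate block. With single libraries left out Kif26a ran from -0.06 to 2.09, Dync1h1 from -0.07 to 0.57, Kif5b from -0.01 to 0.67, Kif5c from -0.63 to 0.22 and Kif21a from -0.82 to 0.25. Deviations of libraries with 1 replicate number were only weakly correlated across genes (0.011 to 0.034, against -0.041 to 0.018 for unlike numbers). The numbers were not taken as pairs in the main fit, though such small values cannot exclude a pairing. Depth limits the low members: Dctn1 and Dctn2 had at most 13 and 12 counts in a WT library.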

Other observations

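The counts of many motor genes came mostly from a lone library. In WT 36.5% of the 52 tested members had more than 50% of their summed CPM in 1 of the 4 libraries, against 37.2% of all tested genes. In Emb knockdown the shares were 28.8% and 32.1%. Among transport genes the dynactin subunit Dctn5 had 74.6% of its WT sum in WT replicate 2 and 80.5% of its Emb knockdown sum in replicate 1, and the light chain Klc2 had 80.9% of its Emb knockdown sum in replicate 2.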
